A study of Mus musculus with 3 samples.

Results

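The 34 genes described here encode proteins of the lysosome and of autophagy: 10 proteases, 11 hydrolases of sugars and lipids with their activators, 6 membrane proteins, 5 subunits of the proton pump, the transcription factor Tfeb and the autophagy receptor Sqstm1. They were taken by name, through the RefSeq transcript that each array probe was designed for, and make up 34 of 15394 named genes measured. All were read in cardiac myofibroblasts, fibroblasts that contract and lay down collagen after an injury, on 1-colour microarrays with 1 array for each of 3 culture states. Adherent cells had grown on plastic plates. Non-adherent cells were detached from the plates with trypsin and held in suspension in low-attachment plates, and re-adherent cells were put back on plastic after suspension. All cells came from male C57BL/6J mice whose left anterior descending coronary artery had been tied permanently, and the hearts were taken 3 days later. The labels give the age of the mice as 8 weeks in one place and as 10 weeks at the operation in another. Cells that attached to plastic overnight were passed over a magnetic column, and those negative for CD45, a surface protein of leukocytes, were kept as myofibroblasts. Each RNA sample was a mixture from several plates, so the spread between animals or cultures is unknown. The states followed each other in time, so state and total time in culture cannot be told apart, and the study's methods describe a loss of cells in suspension, so the non-adherent RNA came from the cells that remained.

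Lysosomes are acidic organelles in which proteases, glycosidases, lipases and other hydrolases break down material delivered by endocytosis and by autophagy, the process by which a cell encloses and digests its own contents. The vacuolar proton pump keeps them acidic, and membrane glycoproteins shield their limiting membrane. Tfeb and its relatives, the MiT factors, bind E-box elements near the starts of many lysosomal genes and raise their transcription. Lysosomes are abundant in macrophages, and in the heart inherited defects of Gaa, Gla and Lamp2 cause cardiomyopathy.

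Each value below is a log2 level, the signal of a gene's probe relative to the 75th percentile of all non-control spots on the same array, and a difference is the log2 level on the first array named minus that on the second. Of 59305 non-control spots, 53.9% to 59.9% passed the software's background test on the arrays, and all 34 genes passed it on all 3. No spot was saturated, and 0 spots of the 34 genes were among those set aside as uneven. The error that the scanner software gave for a difference lay between 0.06 and 0.21 for these genes, with a median of 0.20 over all genes. Probes spotted 10 times gave an error of 0.10 or 0.11. Both errors cover the reading of the arrays alone. With 1 array per state there is no replicate check and no test, so "rose" and "fell" are used below for differences over 2-fold, and other differences are given as values.

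Most of the lysosomal genes, 32 of 34 (94.1%), were highest in suspension, as were 38.9% of all genes. From adherent to non-adherent cells, 27 of 34 (79.4%) rose over 2-fold and 0 fell, beside 17.2% and 14.7% of all genes measured. With the arrays scaled to their spike-in control probes in place of the 75th percentile (spike-in scaling), 21 of the 34 rose, and under the other scalings tried 27 or 28. The median difference was 1.52, or 2.87-fold, against -0.07 over all genes, and 9 of the 34 rose over 4-fold, as did 7.61% of all genes. Differences above 0 were found for 33 of the 34 and for 46.8% of all genes. In RNA from a whole culture, a change in the number of cells of some type cannot be told apart from a change in RNA per cell. When the cells were returned to plastic, 20 of the 34 fell over 2-fold and 0 rose, beside 16.3% and 15.6% of all genes, and 4 fell over 4-fold, beside 6.05%. The median difference of re-adherent against non-adherent cells was -1.07, with 32 of 34 below 0 (46.3% of all genes). The 2 steps share the non-adherent array, so a high reading there would raise one difference and lower the other.

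**Figure D1:**
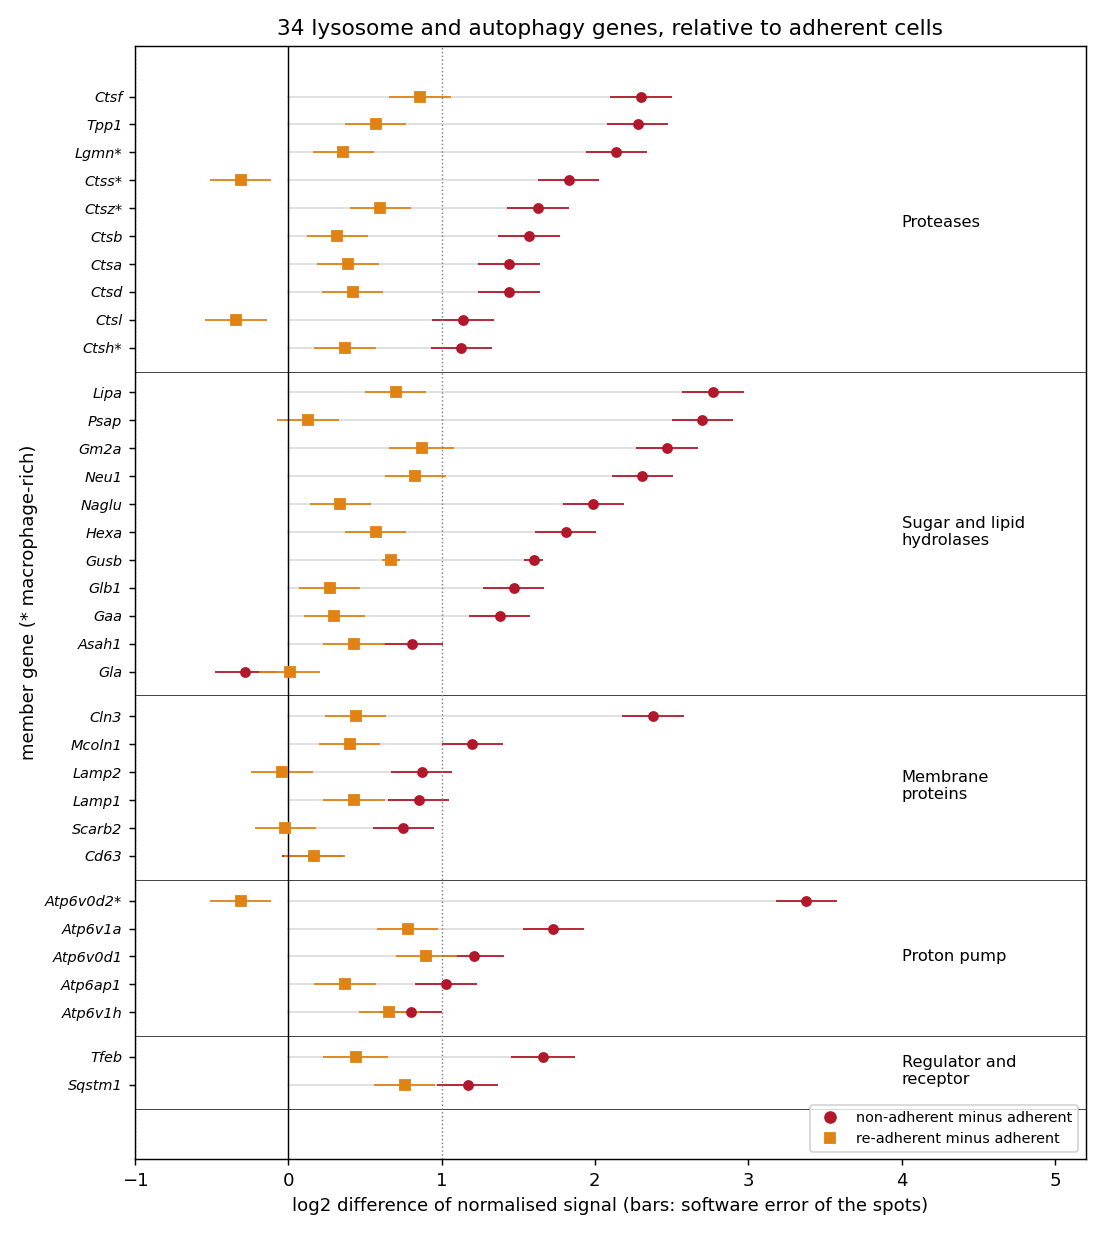
Log2 difference of each of the 34 genes from its adherent level, in non-adherent cells (circles) and re-adherent cells (squares), by role and with the error given by the scanner software as bars; the dotted line marks 2-fold and stars mark the macrophage-rich genes. Circles lie between -0.28 and 3.38, with 27 beyond 2-fold, and squares between -0.34 and 0.90, with a median of 0.41 that turns to -0.40 with spike-in scaling.

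The sequence before the transcription start was examined because the genes moved together and because lysosomal genes are known for E-boxes there. RefSeq promoter windows of assembly GRCm38.p6, of 250 bases before and 50 after a transcription start, were matched by symbol for 29 of the 34 genes, and Ctsb, Ctsh, Asah1, Atp6v0d2 and Atp6v1h had no entry. The core E-box CACGTG, a palindrome and thus the same on both strands, was present for 14 of 29 (48.3%), against 2187 of 27025 genes with a window (8.09%) and 10.8% of the genes measured. An extended form that contains it, TCACGTGA, was present for 7 of 29 (24.1%). Its share was 1.12% of genes with a window and 1.87% of those also measured. The CLEAR consensus, which has a further G before and C after the extended form, was found for 1 of 29, Cln3 (3.45%). Among genes with a window its share was 0.37%, and among those also measured 0.629%. The purine-rich sequence GAGGAAGT, bound by the myeloid factor PU.1 and searched on both strands, was found for Ctss, Gla and Gusb (10.3%). The matching shares for it were 3.69% and 3.63%. The 250 bases before the start are given 5′ to 3′ on the strand of the gene, with core E-boxes in capitals, for the genes whose windows show the range. Lamp1 (chr8:13158911-13159160, plus strand) held 4 E-boxes, with first bases 61, 45, 28 and 15 before the start, Mcoln1 (chr8:3500269-3500518, plus) held 2 and Cln3 (chr7:126583237-126583486, minus) 2. Ctsd (chr7:142387828-142388077, minus) also held 2, and Atp6v1a (chr16:44139260-44139509, minus) held 1 at base 131. Gla (chrX:134601006-134601255, minus) is shown as a gene with 2 E-boxes that did not rise, and Ctss (chr3:95526536-95526785, plus) as a gene with none that rose.
Lamp1: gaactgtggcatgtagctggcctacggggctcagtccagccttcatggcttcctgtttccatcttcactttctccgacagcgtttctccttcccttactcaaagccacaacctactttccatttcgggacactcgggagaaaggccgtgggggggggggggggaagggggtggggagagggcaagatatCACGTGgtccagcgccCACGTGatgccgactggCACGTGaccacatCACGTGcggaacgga
Mcoln1: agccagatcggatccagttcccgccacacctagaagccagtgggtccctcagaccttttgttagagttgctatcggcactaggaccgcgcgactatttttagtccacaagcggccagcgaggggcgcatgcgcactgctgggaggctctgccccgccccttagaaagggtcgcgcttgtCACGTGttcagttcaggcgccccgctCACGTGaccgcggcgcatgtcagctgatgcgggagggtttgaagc
Cln3: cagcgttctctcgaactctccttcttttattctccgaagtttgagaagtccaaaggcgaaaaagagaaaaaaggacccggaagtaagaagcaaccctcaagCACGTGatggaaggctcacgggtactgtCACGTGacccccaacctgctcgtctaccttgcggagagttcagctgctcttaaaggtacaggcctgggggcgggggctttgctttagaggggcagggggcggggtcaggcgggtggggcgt
Ctsd: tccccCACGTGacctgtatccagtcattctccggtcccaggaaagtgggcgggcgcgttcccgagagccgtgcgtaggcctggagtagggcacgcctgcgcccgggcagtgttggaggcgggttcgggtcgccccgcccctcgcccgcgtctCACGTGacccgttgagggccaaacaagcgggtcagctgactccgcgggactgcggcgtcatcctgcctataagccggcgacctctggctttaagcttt
Atp6v1a: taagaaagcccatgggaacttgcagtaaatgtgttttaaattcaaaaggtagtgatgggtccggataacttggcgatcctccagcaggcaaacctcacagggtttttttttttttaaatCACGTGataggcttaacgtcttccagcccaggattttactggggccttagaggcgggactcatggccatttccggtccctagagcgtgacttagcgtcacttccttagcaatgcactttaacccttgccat
Gla: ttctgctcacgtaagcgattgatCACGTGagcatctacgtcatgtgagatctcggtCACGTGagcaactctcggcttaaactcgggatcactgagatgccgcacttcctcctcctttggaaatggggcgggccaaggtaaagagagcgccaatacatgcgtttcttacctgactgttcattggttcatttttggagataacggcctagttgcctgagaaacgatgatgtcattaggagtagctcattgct
Ctss: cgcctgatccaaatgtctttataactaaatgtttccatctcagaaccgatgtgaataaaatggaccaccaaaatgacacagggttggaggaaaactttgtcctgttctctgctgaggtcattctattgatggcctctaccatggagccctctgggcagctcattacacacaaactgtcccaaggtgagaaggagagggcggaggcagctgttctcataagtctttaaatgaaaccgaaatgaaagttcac

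The 14 genes with a core E-box had a median difference of 1.44 in suspension and 12 of them rose, and the 15 genes with a window and no core E-box had a median of 1.66 and 12 rose. Those with the element were Atp6v0d1, Atp6v1a, Cln3, Ctsa, Ctsd, Ctsf, Ctsl, Gaa, Gla, Glb1, Lamp1, Lgmn, Mcoln1 and Naglu. Over all genes with a window that were measured, the median was -0.04 with the element and -0.08 without it. A match is a string of letters in this window, and binding of a factor was not measured.

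**Figure D2:**
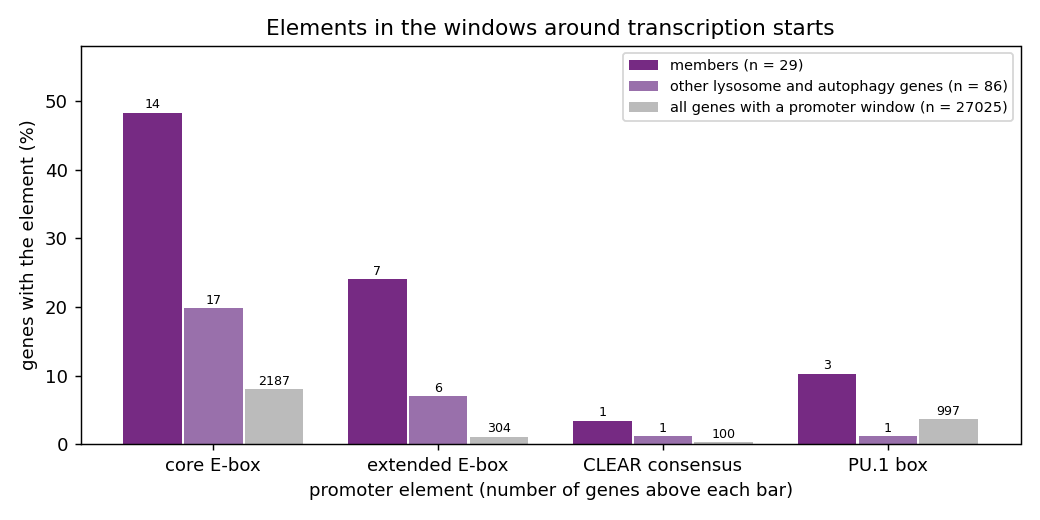
Percentage of genes whose promoter window holds each sequence element, for the lysosome and autophagy genes described here (n = 29), other genes of the same pathways (n = 86) and all genes with a window (n = 27025), with the number of genes above each bar. The core E-box was found for 48.3%, 19.8% and 8.09%.

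All 10 proteases rose in suspension, beside 17.2% of all genes, with a median of 1.60. Spike-in scaling left 8 of 10 rising, with Ctsh and Ctsl under 2-fold at 0.84 and 0.85. Falls on return to plastic were seen for 9 of 10, beside 16.3% of all genes, with a median of -1.35. Cathepsin F (Ctsf), a cysteine protease, had levels of -0.89 in adherent, 1.41 in non-adherent and -0.03 in re-adherent cells. It rose 4.93-fold in suspension and fell by 1.44 on return. Tpp1, tripeptidyl peptidase, which removes tripeptides from the ends of proteins, read 0.91, 3.19 and 1.47 in the same order and rose by 2.28. Lgmn encodes legumain, an asparaginyl endopeptidase that processes other lysosomal proteases. Its levels were 6.10, 8.24 and 6.46, a 4.42-fold rise and a 3.45-fold fall. The cysteine protease cathepsin S (Ctss), which trims the invariant chain of MHC class II in antigen-presenting cells, read 6.78, 8.61 and 6.47, and its fall of 4.41-fold took it to -0.31 against its adherent level, beyond the error of 0.20.

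Ctsb and Ctsl are widely expressed endopeptidases, and Ctsd is an aspartic protease. Ctsb read 7.33, 8.90 and 7.65, a rise of 1.57. For Ctsd the levels were 7.78, 9.22 and 8.20, and the rise was 1.44, or 2.75 by a second probe. Ctsl went from 7.55 to 8.69 and then to 7.21, so that it fell by 1.48 after a rise of 1.14 and ended below its starting level by more than the error of 0.20. Ctsa, the carboxypeptidase that protects β-galactosidase and neuraminidase in a shared complex, rose by 1.44 and fell by 1.05. The carboxypeptidase Ctsz rose by 1.63 and fell by 1.03. Ctsh, an aminopeptidase, rose by 1.13, and its difference of -0.77 on return did not reach 2-fold. Spots around that of Ctsh were themselves 0.28 higher in non-adherent cells, the largest such shift from the adherent array among the 34 genes. These spots shifted by -0.34 on return, in the direction of the difference of Ctsh. The part of both shifts in the result was not tested.

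Of the hydrolases of sugars and lipids, 9 of 11 rose in suspension, beside 17.2% of all genes, with a median of 1.81. Falls on return were seen for 8 of 11, beside 16.3% of all genes, with a median of -1.23. Lipa, lysosomal acid lipase, which frees cholesterol and fatty acids from lipoprotein lipids, had levels of 2.65, 5.42 and 3.35 in adherent, non-adherent and re-adherent cells. It rose 6.83-fold and fell 4.20-fold. Psap, prosaposin, the precursor of the saposins that present sphingolipids to their hydrolases, read 4.66, 7.36 and 4.79. Its rise was 6.49-fold and its fall 5.92-fold, so that it ended 0.13 above its adherent level, within the error of 0.20, or at -0.68 with spike-in scaling. Neighbouring spots of Psap were 0.45 higher in re-adherent cells than in suspension, in the direction opposite to its fall. The GM2 activator Gm2a, which lifts a ganglioside out of the membrane for Hexa, read -0.93, 1.54 and -0.06, a 5.54-fold rise. A second probe for Gm2a gave a smaller rise of 0.70, and this was the largest disagreement between probes of the same gene.

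Among the glycosidases, Neu1, the lysosomal sialidase, rose the most. Its levels were 2.97, 5.28 and 3.81, a 4.95-fold rise and a fall by 1.48. Naglu, which cleaves heparan sulfate, read 1.71, 3.69 and 2.04 and rose 3.96-fold. Hexa encodes the alpha subunit of β-hexosaminidase, with levels of 4.51, 6.32 and 5.08 and a rise of 3.50-fold. Gusb, β-glucuronidase, is read by a probe spotted 10 times and therefore carries the smallest error, 0.06. It rose by 1.60 and moved by -0.92 on return, which left it 0.67 above its adherent level (-0.14 with spike-in scaling). Glb1, β-galactosidase, rose by 1.47 and fell by 1.19, and Gaa, the acid glucosidase that digests glycogen, rose by 1.38 and fell by 1.09.

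The exceptions in this group were Asah1 and Gla. Asah1, acid ceramidase, differed by 0.81 in suspension and by -0.39 on return, both under 2-fold. Gla encodes α-galactosidase A, which removes terminal galactose from glycolipids. Its levels were 8.18, 7.90 and 8.18, and its difference of -0.28 in suspension was the only one below 0 among the 34 genes, or 0.26 after quantile normalization. The gene lies next to Rpl36a and Hnrnph2 in the reference annotation, it is read here by a single probe, and whether that probe also reads transcripts of its neighbours was not tested.

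Of the membrane proteins, 2 of 6 (33.3%) rose in suspension, beside 17.2% of all genes, with a median of 0.86. A fall on return was seen for 1 of 6 (16.7%), near the 16.3% of all genes, with a median of -0.78. With spike-in scaling 1 of 6 rose, as Mcoln1 was then at 0.91, and 4 of 6 fell. Cln3, a membrane protein whose loss causes a childhood storage disease of neurons, was the larger of the rises. Its levels were 1.72, 4.11 and 2.16, a 5.21-fold rise and a 3.85-fold fall. Mcoln1, the calcium channel of the lysosomal membrane, read 2.95, 4.15 and 3.34 and rose by 1.20. Lamp1 and Lamp2 encode the most abundant glycoproteins of the membrane. Lamp1 read 7.79, 8.65 and 8.22, a difference of 0.85 in suspension, and Lamp2 read 3.95, 4.82 and 3.91, a difference of 0.87. A second Lamp2 probe, designed for another transcript variant, gave 1.67. Scarb2, the receptor that carries glucocerebrosidase to lysosomes, differed by 0.75 and by -0.76 on return. Cd63, a tetraspanin of late endosomes and of vesicles released from cells, read 8.19, 8.35 and 8.35, and no 2 of these levels differed beyond the error of 0.20. Its differences depended on the scaling: in suspension they ran from -0.13 with spike-in scaling to 0.69 after quantile normalization, and on return from -0.81 to 0.02.

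For the proton pump, 4 of 5 subunits rose in suspension, beside 17.2% of all genes, with a median of 1.21. A fall on return was seen for 1 of 5 (20.0%), near the 16.3% of all genes, with a median of -0.66. With spike-in scaling 2 of 5 rose, since Atp6v0d1 and Atp6ap1 were then at 0.92 and 0.74, and 3 of 5 fell. The pair of genes for its d subunit differed in size of change. Atp6v0d2, the form of the d subunit known from osteoclasts and macrophages, had signals of 739, 8260 and 495 units in adherent, non-adherent and re-adherent cells, which are log2 levels of 0.18, 3.57 and -0.13. Its rise of 10.4-fold and its fall of 13.0-fold were the largest among the 34 genes, and a second probe gave a rise of 3.85 in place of 3.38. Atp6v0d1, the form found in most cells, read 2.99, 4.21 and 3.90. It rose by 1.21 and differed by only -0.31 on return, and its level in re-adherent cells was 0.90 above the adherent one, the most of any of the 34 (0.09 with spike-in scaling). Atp6v1a, the catalytic subunit, rose by 1.73 and differed by -0.95 on return. The accessory subunit Atp6ap1 rose by 1.03, close to the 2-fold limit, and the regulatory subunit Atp6v1h differed by 0.80 and -0.14.

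Tfeb, the factor that drives lysosomal genes, was itself among those that rose. Its levels were -1.53 in adherent, 0.13 in non-adherent and -1.09 in re-adherent cells, a rise of 1.66 and a fall by 1.23, with an error of 0.21. The protein is known to be controlled chiefly by its movement into the nucleus, which an expression array does not read. Sqstm1 encodes a receptor that brings ubiquitin-tagged cargo to the autophagosome. It read 2.32, 3.49 and 3.09, rose by 1.17 (0.88 with spike-in scaling), differed by -0.41 on return and ended 0.76 above its adherent level, or at -0.04 with spike-in scaling.

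Several probes read 10 of the 34 genes. For all 10, every probe gave the same direction in suspension and the same direction on return, and for 8 of 10 in re-adherent against adherent cells. The exceptions in that last comparison were Lamp2 and Atp6v0d2. The range between probes of a gene had a median of 0.57 in suspension and reached 1.77, so the size of a rise is less certain than its direction. The second probe of Ctsa gave 2.10 in suspension in place of 1.44. The other probes of Cln3 gave 2.68 and 1.53.

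Whether widely expressed members rise as far as those rich in macrophages was asked by splitting the set from textbook knowledge into Ctss, Ctsh, Ctsz, Lgmn and Atp6v0d2 on one side and the other 29 genes on the other. All 5 macrophage-rich genes and 22 of the 29 widely expressed ones (75.9%) rose in suspension, or 4 of 5 and 17 of 29 with spike-in scaling. The medians were 1.83 and 1.44, a difference of 0.39, and the means were 2.02 and 1.48. The 2 groups of genes overlapped: the macrophage-rich genes ranged from 1.13 to 3.38 and the widely expressed ones from -0.28 to 2.77, with 21 of the 29 inside the range of the first and 8 above its median. Among those 8 were Lipa, Psap, Gm2a, Cln3 and Neu1. The difference depends on where the line is drawn. With Ctss and Atp6v0d2 alone called macrophage-rich it was 1.15, and with Ctsb, Ctsd, Lipa, Gm2a, Hexa and Psap added to the 5 it was 0.62.

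On return to plastic the macrophage-rich genes had a median of -1.79 and the widely expressed ones of -1.05, a difference of -0.73. Of the first, 4 of 5 fell, and of the second, 16 of 29, or 5 of 5 and 22 of 29 with spike-in scaling. The gap came to -1.88 for the narrower group of Ctss and Atp6v0d2 and to -1.12 after quantile normalization. Atp6v0d2, Lgmn and Ctss fell by 3.70, 1.79 and 2.14, but the widely expressed Psap, Lipa and Cln3 fell by 2.57, 2.07 and 1.94.

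Most markers of macrophages moved with the set, although the cells had been sorted as negative for CD45. Of 19 markers listed, 17 were measured, all well above background on all 3 arrays, none of them at 0, while Cd163 stayed within background throughout and no probe was matched to Cd68. In suspension 16 of 17 rose, each over 4-fold, with a median of 2.90, and the exception was Itgam, with -0.84. Ptprc, the gene for CD45, had levels of -0.87, 1.81 and -0.03. Adgre1 and Csf1r rose by 3.16 and 2.61, Lyz2 by 2.60 and C1qa by 3.32. On return 15 of 17 fell, beside 16.3% of all genes, with a median of -1.70. Itgam and Cx3cr1 went the other way on that step, by 0.68 and 1.95, and Cx3cr1 ended 4.62 above its adherent level. The summed signal of the 17 markers, in units of each array's 75th percentile, was 261 in adherent, 1670 in non-adherent and 548 in re-adherent cells, and that of the 34 lysosomal genes was 1940, 4350 and 2260. The marker sum thus changed 6.41-fold in suspension and the lysosomal sum 2.24-fold. Such sums weigh bright genes most, and the brightest lysosomal genes on the adherent array, Cd63 and Gla, differed by 0.16 and -0.28 in suspension. Of the 34 genes, Atp6v0d2 alone rose further than the median marker. The part of macrophages in the rise of the lysosomal genes was not tested.

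**Figure D3:**
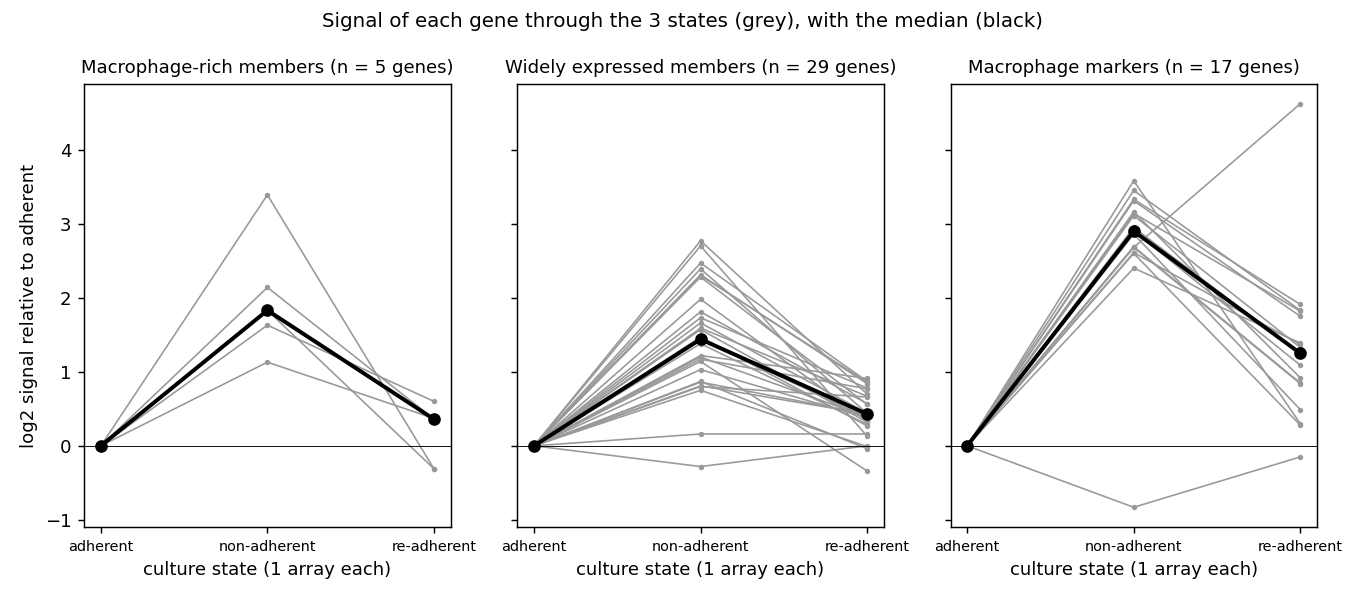
Log2 level relative to the adherent array through the 3 culture states for 5 macrophage-rich lysosomal genes, 29 widely expressed ones and 17 macrophage markers, with each gene in grey and the median in black. Medians in suspension were 1.83, 1.44 and 2.90, and in re-adherent cells 0.36, 0.43 and 1.24 (the last falls to 0.44 with spike-in scaling, and the median of all 34 lysosomal genes turns from 0.41 to -0.40).

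Most markers of endothelial cells moved with the set as well. All 10 were measured, and in suspension 6 of 10 rose and 0 fell, beside 17.2% and 14.7% of all genes, with a median of 1.18. The largest rises were those of Tie1 (3.18), Cdh5 (2.94) and Vwf (2.49), while Kdr and Tek differed by -0.35 and -0.12. On return 8 of 10 fell, beside 16.3% of all genes, and Kdr went the other way, by 0.74. The median was -2.67, which did not change with the 3 markers that were within background in re-adherent cells set to their bound. The summed signals of the 10 endothelial markers were 24.6, 39.3 and 22.9 in adherent, non-adherent and re-adherent cells. Of the cardiomyocyte markers 5 of 9 were measured, with a median of 0.99 in suspension. Of these 5, 2 rose, Tnni3 from within background and Myl2 from a dim signal of 21.7 units. The return step had 2 of the 5 falling and 1, Tnnt2, rising. The 6 mural cell markers, 3 of them well above background on all 3 arrays, had a median of 0.30 in suspension. Of these 6, 2 rose, both from within background, and 1 fell, and on return 3 fell. Of the neutrophil markers 3 of 7 were measured, of which 1 rose in suspension and 2 fell on return. Of the lymphocyte markers 2 of 8 were measured, of which 1 rose from within background and fell on return. The 10 fibroblast markers were well above background on all 3 arrays, with summed signals of 1540, 1080 and 1260 and a median of -0.63 in suspension, where 2 of 10 rose and 4 fell. Col1a1 and Col3a1, collagen chains, differed by -0.70 and 0.19 and Postn, periostin, by -0.12, while Thy1 fell by 3.50 and the matrix proteoglycans Lum and Dcn rose by 3.56 and 1.69. The part of these cells in the result was not tested.

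With the scaling used, re-adherent cells were close to adherent cells for the lysosomal genes. None of the 34 then differed over 2-fold between these states, beside 4.84% of all genes higher and 4.9% lower. With spike-in scaling Ctsl, Ctss and Atp6v0d2 were over 2-fold lower, at -1.15, -1.12 and -1.12. The median difference of re-adherent minus adherent cells was 0.41, or 1.33-fold, against 0.06 over all genes, with 29 of 34 above 0 (56.1% of all genes), but with scaling to the spike-in probes it turned to -0.40, with 4 of 34 above 0. That scaling moved the median of all genes from 0.06 to -0.74. It shifts every gene on an array alike, so relative to all genes the median of the set, 0.34, was the same by construction. For 26 of the 34 the difference above 0 exceeded the software error, and for Ctsl, Ctss and Atp6v0d2 the difference below 0 did. A second probe of Atp6v0d2 gave 0.24 in place of -0.31. Spots next to those of the 34 genes shifted by -0.25 to 0.25 between these 2 arrays, which is of the order of the differences themselves, and the part of this in them was not tested.

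The re-adherent level lay between the adherent and the non-adherent one for 27 of 34 genes (79.4%), against 23.3% of all genes, but for 4 of 34 (11.8%), against 4.09%, with spike-in scaling. Under the other alternatives it did so for 25 to 29. With the scaling used, those that ended below their adherent level after a higher level in suspension were Ctsl, Ctss, Lamp2, Scarb2 and Atp6v0d2. For Lamp2 and Atp6v0d2 this depended on the probe, as second probes gave 0.28 and 0.24 in place of -0.04 and -0.31. The highest differences from the adherent level were 0.90 for Atp6v0d1, 0.87 for Gm2a, 0.86 for Ctsf and 0.83 for Neu1, and with spike-in scaling they were 0.09, 0.06, 0.05 and 0.03. Of the other proton pump subunits, Atp6v1a, Atp6v1h and Atp6ap1 ended at 0.78, 0.66 and 0.37, which turned to -0.03, -0.15 and -0.43 with spike-in scaling. The macrophage markers ended higher than the lysosomal genes, with a median of 1.24, or 0.44 with spike-in scaling. With the scaling used, 10 of 17 were over 2-fold above the adherent level, beside 4.84% of all genes. With that scaling 0 of the 34 lysosomal genes exceeded the marker median.

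The wider pathways were read from a list of 111 further genes, of which 110 were measured and Atg4a was not above background. In suspension 47 of 110 (42.7%) rose and 3 fell, beside 17.2% and 14.7% of all genes, with a median of 0.81. On return 29 (26.4%) fell and 3 rose, beside 16.3% and 15.6% of all genes, with a median of -0.53. Of 13 further subunits of the proton pump, 11 rose (84.6%), with a median of 1.45, and of 28 further hydrolases 16 rose and 1 fell, with a median of 1.27. Of 33 genes of the autophagy machinery, 6 rose (18.2%) and 1 fell, with a median of 0.60, and this share is near the 17.2% of all genes. Nutrient sensing genes and MiT factors lay between, with 8 of 17 rising. Of 19 further genes of the lysosomal membrane and of sorting, 6 rose (31.6%) and 1 fell, with a median of 0.65, close to that of the autophagy machinery.

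By gene, the largest rises in this wider list were those of Sort1, a sorting receptor (2.94), the MiT factor Mitf (2.69), the protease Ctsc (2.60), the cystine transporter Ctns (2.50) and Fnip2, a partner of folliculin (2.43). Mitf had levels of 0.92, 3.60 and 1.18 and fell by 2.42 on return. The other relatives of Tfeb moved less, with 1.53 in suspension for Tfec and 0.94 for Tfe3. The protease Ctsk differed by 0.58. Map1lc3b, which coats the autophagosome, rose by 1.66 and its relative Gabarapl1 by 1.04, but Map1lc3a fell by 1.18 and rose by 1.75 on return. Bnip3, a mitophagy receptor, differed by 0.42. The other genes at the low end were Slc17a5, the sialic acid transporter (-1.47), Idua, α-L-iduronidase (-1.31), the pump subunit Atp6v0a2 (-0.73) and the calcineurin subunit Ppp3cb (-0.55). In re-adherent against adherent cells, 3 of the 110 (2.73%) were over 2-fold higher and 1 lower, beside 4.84% and 4.9% of all genes. The median was 0.39, which turned to -0.41 with spike-in scaling.

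**Figure D4:**
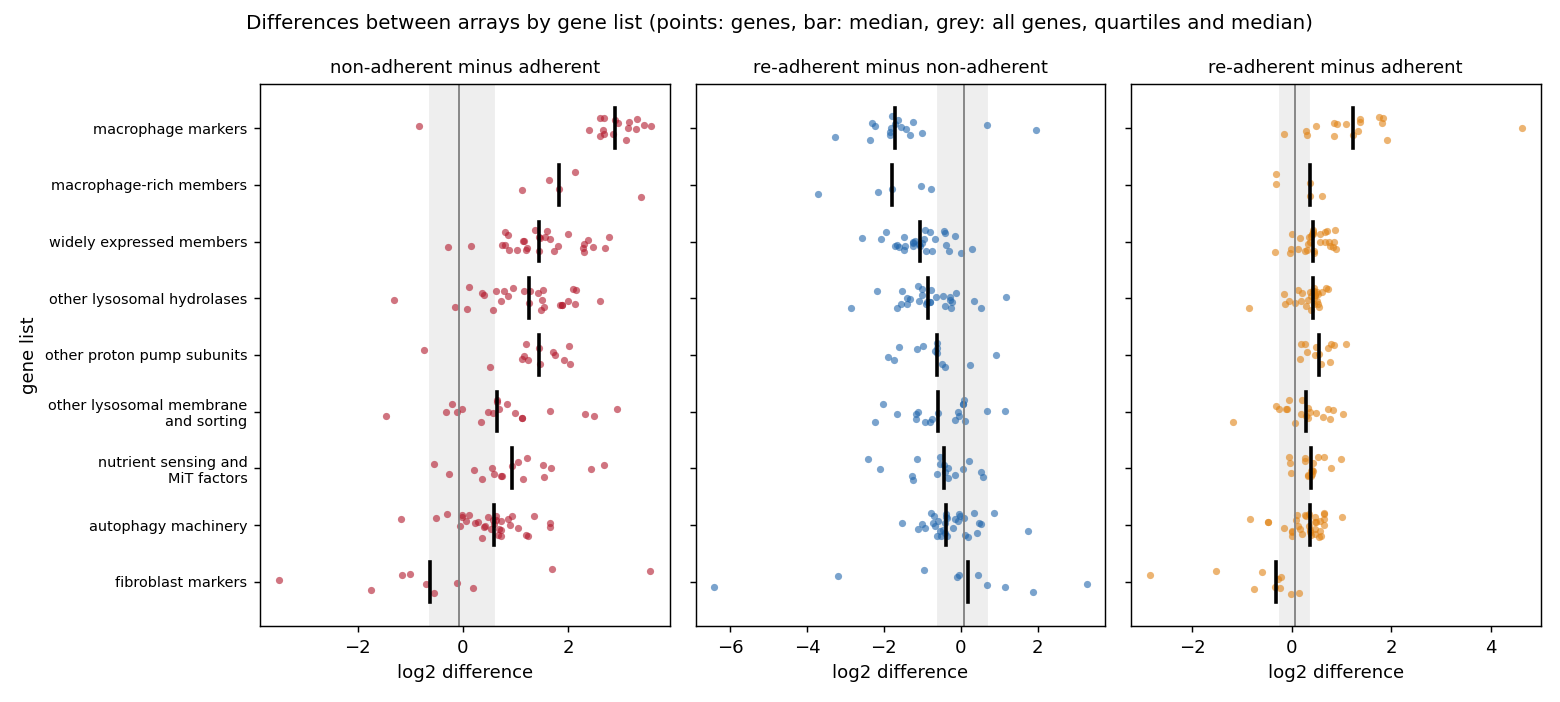
Log2 differences between pairs of arrays for the genes of each list (points, with the median as a bar), beside the median and quartiles of all 15394 genes in grey. In suspension the medians were 2.90 for macrophage markers, 1.83 and 1.44 for the macrophage-rich and widely expressed lysosomal genes, 0.60 for the autophagy machinery and -0.63 for fibroblast markers, and in the right panel the median of all 34 lysosomal genes, 0.41, turns to -0.40 with spike-in scaling.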

How the data were processed

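RNA of cardiac myofibroblasts in 3 culture states was read on 1-colour arrays, 1 array per state, all on 1 slide and in 1 scan. The deposited scanner output holds spot intensity on a linear scale, background-subtracted by the authors' software (Agilent Feature Extraction 10.10.1.1 per the file headers). The deposited matrix of the series holds the same intensity times 1 constant per array (1.52, 1.52 and 1.62, with medians of 60.78, 61.84 and 50.65). Its normalization is not given in the sources used here, so it served as an alternative. Here log2 signals were centred on the 75th percentile of the non-control spots of their array (651, 697 and 541 units). Uneven spots (154, 180 and 175) were left out and spots of a probe averaged. RefSeq accessions without version named 27229 of 55665 probes (21462 of 37874 transcript names matched). Probes well above background on 1 array or more were kept, and the brightest probe on average stood for its gene.

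Differences have no p-value. Their error adds in quadrature those that the software gave to the spots compared. Members, gene lists and the split of the members were chosen with earlier results of these data known, so none is independent support. The text names all 34 members. Of the wider list, it names the 5 largest rises and falls in suspension and 8 fixed genes (1 of them is not reported here), and of the marker lists, fixed genes. Itgam, Cx3cr1, Cd163, Col3a1, Lum, Dcn, Cdh5, Tie1, Vwf, Kdr, Tek, Tnni3, Myl2 and Tnnt2 were named after their values were seen. Alternatives were other scalings (none, median, quantile, probes above background on all arrays, deposited matrix, the 350 E1A spike-in spots), normexp with an offset of 50 on the median spot and background signals (mean signals were not used), filters, probe averaging, 1.5-fold and 4-fold thresholds and other splits of the members. Code was tested on simulated data. Python 3.11.15, numpy 2.4.6, pandas 2.3.3, R 4.3.3 and limma 3.58.1 were used. The number of arrays limits the precision.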

Additional observations from a re-analysis of the deposited data

How the results depend on the processing

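No paired analysis was possible because the groups hold 1 array each, and no replicate could be left out. Of the summary values, 151 stayed within the software error, or for counts within 1.5 times, 26 moved further and 2 that had exceeded the error turned direction. Part of the 151 could not move. A scaling that shifts a whole array leaves the difference between groups of its genes unchanged. The filters on dim or uneven spots leave the values of the 34 genes unchanged, as all of these passed them. The rise in suspension kept its direction under all alternatives, with 32 to 34 of 34 genes above 0, and relative to all genes its median lay between 1.52 and 1.76. Scalings that shift a whole array cannot change that relative value, so they do not test it. The causes of the moves below were not tested, apart from those of the thresholds and the splits, which set the values by construction.

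The median of the 34 genes in suspension, 1.52, was 1.74 after quantile normalization and 1.23 with spike-in scaling. On return, -1.07 became -1.43 without scaling, -1.50 after quantile normalization, -1.35 with the deposited matrix and -1.59 with spike-in scaling. In re-adherent against adherent cells, 0.41 became 0.14 without scaling and -0.40 with spike-in scaling. At 4-fold the counts of 27 rising and 20 falling genes were 9 and 4. With spike-in scaling they were 21 and 27. The difference between macrophage-rich and widely expressed genes was 1.15 (narrower group) and 0.62 (broader group) in suspension, -1.12 (quantile) and -1.88 (narrower) on return, and, from -0.07 in re-adherent against adherent cells, -0.29 with means and -0.73 with the narrower group. For the wider list the median of 0.81 in suspension was 0.52 with spike-in scaling, and the 47 rising genes were 72 at 1.5-fold and 11 at 4-fold. On return its median of -0.53 was -0.90 without scaling, -0.81 with the deposited matrix and -1.05 with spike-in scaling, and its 29 falling genes were 46 without scaling, 58 with spike-in scaling, 53 at 1.5-fold and 6 at 4-fold. In re-adherent against adherent cells its 0.39 was 0.13 without scaling and -0.41 with spike-in scaling.

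Of 1224 single-gene values, 51 changed sign, 28 of them with spike-in scaling, and 27 of those that changed sign had exceeded their error with the scaling used. The 1224 include values under the filters on dim or uneven spots, which could not change for these genes. With spike-in scaling the difference of re-adherent minus adherent cells became -0.42 for Ctsa, -0.49 for Ctsb (-0.03 after quantile normalization), -0.39 for Ctsd, -0.44 for Ctsh, -0.21 for Ctsz, -0.45 for Lgmn, -0.24 for Tpp1, -0.51 for Gaa, -0.54 for Glb1, -0.14 for Gusb, -0.23 for Hexa, -0.47 for Naglu, -0.38 for Asah1, -0.11 for Lipa, -0.38 for Lamp1, -0.41 for Mcoln1, -0.37 for Cln3, -0.03 for Atp6v1a, -0.15 for Atp6v1h, -0.43 for Atp6ap1, -0.37 for Tfeb and -0.04 for Sqstm1, and the differences of Psap, Cd63 and Gla, within the error before, became -0.68, -0.64 and -0.80. Gla turned to 0.26 in suspension after quantile normalization, and on return from 0.28 to -0.08 without scaling, -0.54 after quantile normalization and -0.23 with spike-in scaling.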
